A study of Homo sapiens with 12 samples.

Results

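The BH3-only genes and the BNIP3 pair encode small proteins that act on the outer mitochondrial membrane, and their RNA levels were followed here in human kidney cancer cells in which FoxO1 or FoxO3 was switched on. The 9 genes were selected by name: BCL2L11 (BIM), BBC3 (PUMA), PMAIP1 (NOXA), BAD, BID, BIK, BMF, BNIP3 and BNIP3L (NIX). 8 of them had a probe set, a group of array probes read as 1 value, annotated to that gene alone, out of 19775 genes with such a probe set. 7 of the 8, all but BIK, were bright enough to be tested, among 14285 genes tested in all. BBC3 shares its probe set with other genes on this array, so no value is given for it. Where a gene had several probe sets, the one with the highest mean over the 12 arrays gave its level and the others served as a check.

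BH3-only proteins are the sensors of the mitochondrial death pathway. They bind anti-apoptotic BCL2 proteins through a short helix, the BH3 domain, and BIM, PUMA and cleaved BID can also activate the pore-forming proteins BAX and BAK directly. FoxO factors are best known in this family for driving BCL2L11 in cells deprived of growth factors. BNIP3 and BNIP3L are hypoxia-induced receptors that tether mitochondria to the LC3 and GABARAP proteins of forming autophagosomes.

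The cells were RCC4 and UMRC2, human kidney cancer lines that the submitters describe as low in their own FoxO1 and FoxO3. On these arrays FOXO1 RNA with vehicle was at a log2 level of 6.46 in RCC4 EV and 6.78 in UMRC2 EV, near the array median of 6.67, but FOXO3 RNA was above it, at 10.38 and 11.65. Each was engineered to express FoxO1(TA)ERT2, FoxO3(TA)ERT2 or, as the control that the labels call empty vector (EV), the ERT2 moiety alone. Whether a line is a pool or a single clone is not given in the sources used here. ERT2 is a modified estrogen receptor domain that holds the fusion in the cytoplasm until 4-hydroxytamoxifen (4OHT) is added, and the TA form lacks the AKT phosphorylation sites that would otherwise export FoxO from the nucleus. All 6 engineered lines were kept under puromycin selection and received either ethanol vehicle or 100 nM 4OHT for 12 h, a time at which the submitters saw no apoptosis or cell cycle arrest.

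The 12 combinations of line, construct and treatment were measured on 1 Affymetrix U133 Plus 2.0 array each. A response is the log2 level with 4OHT minus the log2 level with vehicle in 1 engineered line, so there were 6 responses, and the 2 cell lines stand as the replicates of a construct (n = 2). A fitted difference is given with its standard error from limma, a linear model test fitted on all genes tested, and counts as a change when its Benjamini-Hochberg adjusted p is under 0.05. Nothing in the labels gives more than 1 culture for a condition. The fit has a cell line term, so a shift of a line shared by all constructs is taken out. The p-values for construct responses therefore rest on the remaining spread between these 2 lines, pooled over the constructs. That spread is moderated by limma with the spread of all genes tested. Array-to-array spread cannot be told apart from it. For differences between the cell lines, the engineered lines of a cell line stand as its replicates instead.

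Construct RNA was read from ESR1, the gene ERT2 derives from. Of its 9 probe sets, the 5 on which each fusion line stood at least 2 log2 units above the EV line with vehicle were chosen by that difference, so their levels are a description. Their median log2 level with vehicle was 5.28 in RCC4 EV and 4.63 in UMRC2 EV. Both lie below the array median, so these probe sets did not show the ERT2 that the labels give for the EV lines. The FoxO1 lines reached 9.22 in RCC4 and 12.29 in UMRC2, and the FoxO3 lines 12.49 and 13.23. The FOXO1 and FOXO3 probe sets did not show the fusions: with vehicle FOXO1 was 6.50 and 7.12 in the FoxO1 lines of RCC4 and UMRC2, and FOXO3 was 10.19 and 11.58 in the FoxO3 lines, close to the EV levels above. The cyclin D1 gene CCND1, which the labels give as a FoxO target, fell by 2.29 relative to EV (adjusted p = 0.00452). Deposited array medians ran from 71.1 to 138.7 intensity units. The spike-in controls had geometric means of 4212 to 4699 on 5 RCC4 arrays, but 2515 on the RCC4 FoxO3 array with 4OHT and 2239 to 2463 on the 6 UMRC2 arrays, so the vehicle and 4OHT arrays of RCC4 FoxO3 differ in scan level. Of 7 renal and epithelial markers on the array, 4 were above the array median on all 12 arrays, among them PAX8 and VIM, and LHX1 was below it on all 12. Of 6 markers of leukocytes, endothelium, red cells and hepatocytes, PTPRC, VWF and ALB were below the median on all 12. PECAM1 and HBB were above it on all 12, and CD3E ran from 5.73 to 7.82. The summed log2 level of the 6 ran from 37.9 to 41.3 over the arrays.

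The promoters of 3 members are shown, BCL2L11 for the FOXO core and PMAIP1 and BNIP3 for the hypoxia response core. Each is the 250 bases before the annotated start site, read from RefSeq on GRCh38.p14. Capitals in the first mark the FOXO core GTAAACA, and capitals in the others mark the hypoxia response core, ACGTG or GCGTG on either strand (adjoining or overlapping matches run together).
BCL2L11, chr2:111120664-111120913, plus strand: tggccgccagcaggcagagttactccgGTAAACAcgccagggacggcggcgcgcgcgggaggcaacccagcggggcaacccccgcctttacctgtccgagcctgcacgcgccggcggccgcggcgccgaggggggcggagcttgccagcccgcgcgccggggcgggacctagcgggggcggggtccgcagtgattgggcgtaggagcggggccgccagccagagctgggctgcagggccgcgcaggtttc
PMAIP1, chr18:59899746-59899995, plus strand: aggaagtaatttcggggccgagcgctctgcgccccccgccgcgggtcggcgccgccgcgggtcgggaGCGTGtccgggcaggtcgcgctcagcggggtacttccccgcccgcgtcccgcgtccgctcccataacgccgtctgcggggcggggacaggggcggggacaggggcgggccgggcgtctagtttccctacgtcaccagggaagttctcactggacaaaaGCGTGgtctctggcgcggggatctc
BNIP3, chr10:131981924-131982173, minus strand: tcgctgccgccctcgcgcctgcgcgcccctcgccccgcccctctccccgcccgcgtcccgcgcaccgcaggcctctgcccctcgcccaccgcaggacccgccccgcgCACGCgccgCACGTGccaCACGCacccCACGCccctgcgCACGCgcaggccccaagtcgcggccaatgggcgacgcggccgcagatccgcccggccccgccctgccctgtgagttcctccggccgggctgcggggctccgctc

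Promoter windows of 300 bases, which add 50 bases after the start, were at hand for 7 of the 9 members, with 13 start sites between them. The FOXO core, searched on both strands, was in 1 of the 13 windows, that of BCL2L11, where it begins 223 bases before the start and overlaps a hypoxia core match. It was in 3.42% of all 35116 promoter windows. The hypoxia core was in 48.4% of all windows, with a mean of 0.90 matches, and BNIP3 had 6 matches. PMAIP1 and BID, the members that changed with FoxO3, had no GTAAACA in these windows. A match describes letters only.

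Among the activator BH3-only genes, BCL2L11 reached its highest levels in the UMRC2 fusion lines with 4OHT. In RCC4 its log2 level went from 9.0 with vehicle to 9.51 with 4OHT in EV, from 9.35 to 10.05 in FoxO1 and from 9.25 to 10.30 in FoxO3. In UMRC2 it went from 8.74 to 8.75 in EV, from 9.02 to 11.36 in FoxO1 and from 8.90 to 11.39 in FoxO3. The 4 fusion arrays with 4OHT were thus the 4 highest of the 12, and the UMRC2 pair stood a further unit above the RCC4 pair. All 4 fusion responses lay above both EV responses: 0.70 and 1.05 in RCC4 and 2.34 and 2.49 in UMRC2, against 0.52 and 0.01. 1 of the 7 tested members met that order upwards, where 9.60% of all genes tested did. The UMRC2 responses are 5.05-fold and 5.64-fold.

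Despite that order, BCL2L11 did not pass the test. Relative to EV, the FoxO1 and FoxO3 responses together differed by 1.38 ± 0.42 (95% interval 0.40 to 2.36, adjusted p = 0.0942). The values for the isoforms were 1.26 ± 0.49 for FoxO1 (adjusted p = 0.447) and 1.51 ± 0.49 for FoxO3 (adjusted p = 0.0790). The EV control weighs heavily here: without the RCC4 EV pair the joint difference was 2.41 (adjusted p = 0.00962), and without the UMRC2 EV pair it was 0.36 (adjusted p = 0.662). Without the RCC4 FoxO1 or the RCC4 FoxO3 pair it passed as well, at 1.67 (adjusted p = 0.0409) and 1.60 (adjusted p = 0.0407). Scaling the arrays to a common median also brought it past the threshold, at 1.29 (adjusted p = 0.0431), and so did probe set 1558143_a_at, at 1.49 (adjusted p = 0.0424). The FoxO3 value passed under 6 of 21 alternatives, with adjusted p from 0.00430 without the RCC4 EV pair to 0.642, and ran from 0.48 to 2.53 when 1 pair was left out. The FoxO1 value passed under none of 21.

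BCL2L11 was the 1 member of 7 with an unadjusted p under 0.05 for a difference in response between the cell lines. Set against its own EV pair, the FoxO1 response was 0.19 in RCC4 and 2.33 in UMRC2, and the FoxO3 response was 0.53 and 2.49. The difference between the lines was 2.05 ± 0.54 (95% interval 0.71 to 3.39, unadjusted p = 0.0100), but its adjusted p was 0.9997. No gene of the 14285 passed that comparison, with 338 at an unadjusted p under 0.05 in limma. The direction was shared by every BCL2L11 probe set: in 7 of 7 the mean fusion response was larger in UMRC2 than in RCC4. In 27 of the 28 fusion responses of these probe sets 4OHT gave the higher level, the exception being -0.09 in RCC4 FoxO1 on 1553088_a_at. On that probe set both RCC4 fusion responses lay below the RCC4 EV response, by 0.68 and 0.11. The 7 joint differences ran from 0.37 to 2.06, the highest on the dimmest probe set, 208536_s_at, which was at the measurement floor on 4 arrays.

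**Figure D1:**
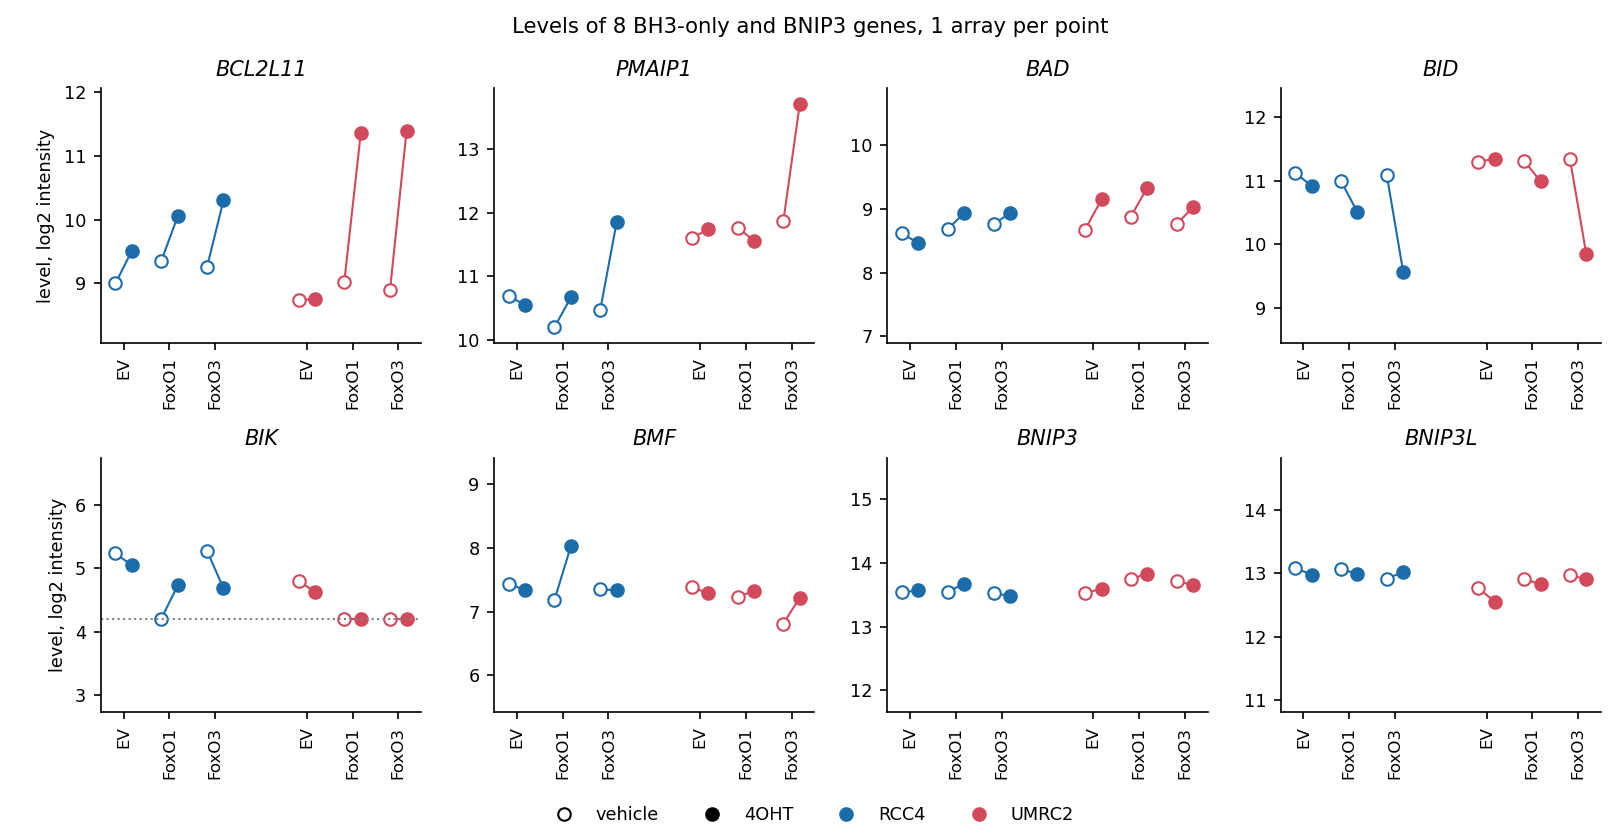
Log2 level (y axis, log2 intensity after quantile normalisation, each panel spanning at least 4 log2 units) of the 8 measured genes in EV, FoxO1 and FoxO3 lines of RCC4 (blue) and UMRC2 (red), with vehicle as open and 4OHT as filled points, 1 array per point and no error bars. BCL2L11 sits near 9 in every vehicle array and at 11.36 and 11.39 in the UMRC2 fusion lines with 4OHT, PMAIP1 and BID move mainly in the FoxO3 lines, and all BNIP3 and BNIP3L points lie between 12.55 and 13.83; the dotted line in the BIK panel is the floor of 4.20.

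BID, whose cleaved form links death receptors to mitochondria, was lower in the FoxO3 lines with 4OHT. Its level in RCC4 was 11.12 with vehicle and 10.91 with 4OHT in EV, 11.00 and 10.50 in FoxO1, and 11.09 and 9.56 in FoxO3. In UMRC2 it was 11.30 and 11.34 in EV, 11.31 and 10.99 in FoxO1, and 11.35 and 9.84 in FoxO3. The FoxO3 arrays with 4OHT were the lowest of the 12, with no other array below 10.50. The FoxO3 responses of -1.53 and -1.50 correspond to levels 2.89-fold and 2.84-fold lower with 4OHT.

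BID was the 1 member of 7 that passed for the FoxO1 and FoxO3 responses together relative to EV, a comparison in which 7.79% of all genes tested were called, 3.09% higher and 4.70% lower. It fell by 0.88 ± 0.15 (95% interval -1.24 to -0.52, adjusted p = 0.0176). With FoxO3 alone it fell by 1.43 ± 0.18 (adjusted p = 0.00287), and the value for FoxO1 alone was -0.33 ± 0.18 (adjusted p = 0.598). All 12 fusion responses of its 3 probe sets were below 0 and below the EV response of the same line. On the brightest probe set all 4 lay below both EV responses, as in 12.9% of all genes tested. The joint call was lost without the RCC4 EV pair (-0.96, adjusted p = 0.0716), the UMRC2 EV pair (-0.80, adjusted p = 0.151) or the UMRC2 FoxO1 pair (-0.89, adjusted p = 0.0568), and on deposited values (-1.17, adjusted p = 0.369). It was also lost on probe set 227143_s_at (-0.93, adjusted p = 0.0574), when dim genes were kept in (adjusted p = 0.149) and with a constant prior variance (adjusted p = 0.166). The FoxO3 call held without any 1 pair, with adjusted p from 0.00289 to 0.0201, and on deposited values (-1.84, adjusted p = 0.0487). It was lost when dim genes were kept in (adjusted p = 0.0764) and with a constant prior variance (adjusted p = 0.0724).

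Among the sensitizers, which work by occupying anti-apoptotic proteins, PMAIP1 rose with FoxO3. NOXA, its product, binds MCL1 and is a classic p53 target. Its level in RCC4 was 10.69 with vehicle and 10.55 with 4OHT in EV, 10.20 and 10.67 in FoxO1, and 10.47 and 11.86 in FoxO3. In UMRC2 it was 11.60 and 11.74 in EV, 11.76 and 11.56 in FoxO1, and 11.86 and 13.71 in FoxO3. Within each cell line the FoxO3 array with 4OHT was the highest of 6. The RCC4 maximum of 11.86 only reached the level that UMRC2 already had with vehicle. The responses are 2.62-fold in RCC4 FoxO3 and 3.60-fold in UMRC2 FoxO3.

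Relative to EV, the FoxO3 response of PMAIP1 was higher by 1.62 ± 0.27 (95% interval 0.98 to 2.25, adjusted p = 0.00785). In that comparison 2 of the 7 members passed, PMAIP1 higher and BID lower, where 16.6% of all genes tested were called, 6.61% higher and 10.0% lower. On deposited values 583 genes were called and 21.6% of them were higher, against 39.7% of the 2377 called here. The PMAIP1 call held without any 1 pair (adjusted p from 0.00103 to 0.0405). It was lost on deposited values (1.20, adjusted p = 0.289), with dim genes kept in (adjusted p = 0.141) and with a constant prior variance (adjusted p = 0.102). For FoxO1 alone the value was 0.13 ± 0.27 (95% interval -0.51 to 0.76, adjusted p = 0.921), with 0.61 in RCC4 and -0.35 in UMRC2 on either side of EV. On the other PMAIP1 probe set, 204286_s_at, the FoxO1 values were 0.24 in RCC4 and 0.31 in UMRC2, both above EV. With both isoforms together it was 0.87 ± 0.24 (adjusted p = 0.0670), which passed without the RCC4 FoxO3 pair (1.04, adjusted p = 0.0194) or the UMRC2 FoxO1 pair (1.13, adjusted p = 0.0153). No member passed for FoxO1 alone, where 0.0840% of genes were called: 12 genes, all higher. With arrays scaled to a common median 36 genes passed for FoxO1, of which 75.0% were higher.

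**Figure D2:**
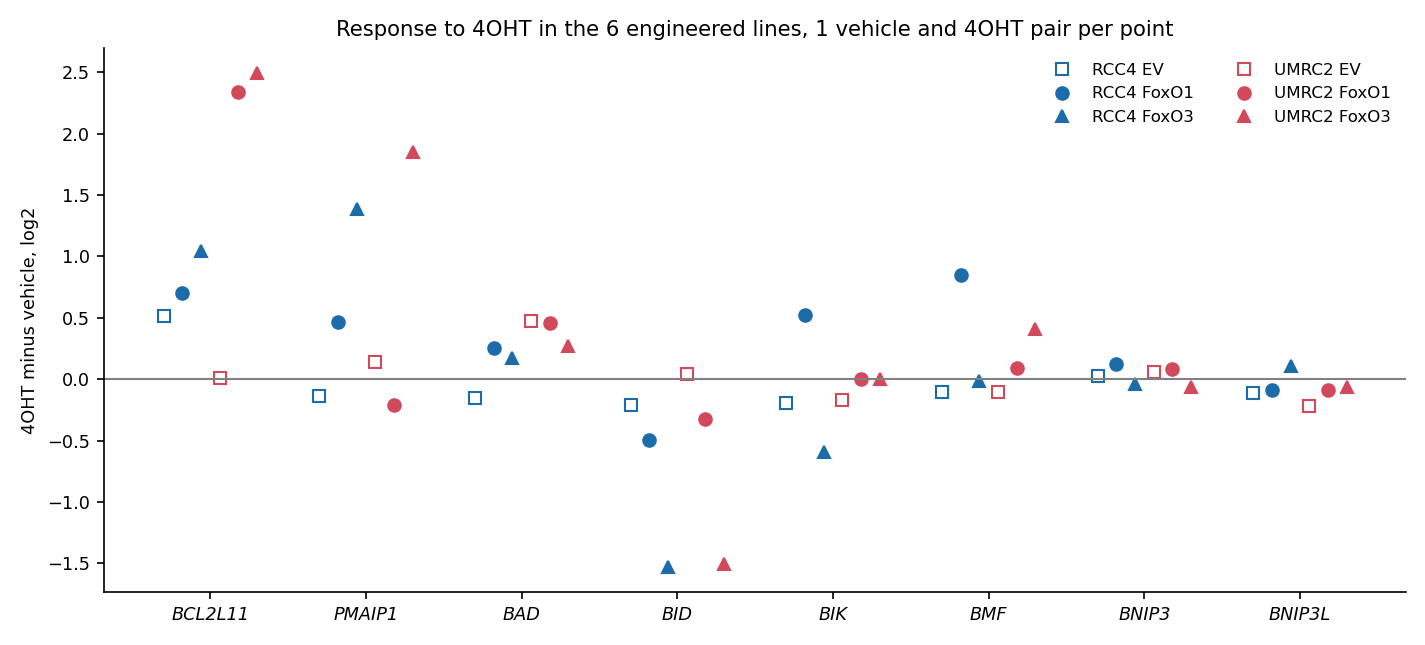
Response to 4OHT (y axis, log2 level with 4OHT minus vehicle) of the 8 measured genes in each of the 6 engineered lines, 1 pair of arrays per point, with EV as open squares, FoxO1 as circles and FoxO3 as triangles, RCC4 in blue and UMRC2 in red, and no error bars. The FoxO3 triangles of PMAIP1 lie at 1.39 and 1.85 and those of BID at -1.53 and -1.50, while all BNIP3 and BNIP3L points lie between -0.22 and 0.13.

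The isoforms were then compared directly, a test in which the EV arrays cancel from the difference but still enter its standard error. PMAIP1 responded more to FoxO3 than to FoxO1 by 1.49 ± 0.27 (95% interval 0.85 to 2.12, adjusted p = 0.0278), and BID was lower with FoxO3 by 1.11 ± 0.18 (95% interval -1.52 to -0.70, adjusted p = 0.0209). These were 2 of the 7 members, where 5.81% of all genes tested differed between isoforms, 2.17% higher with FoxO3 and 3.64% lower. Within each cell line the difference had the same sign: 0.92 in RCC4 and 2.05 in UMRC2 for PMAIP1, and -1.04 and -1.18 for BID. Both PMAIP1 probe sets and all 3 BID probe sets gave that sign in both lines. BCL2L11 differed by 0.25 ± 0.49 (95% interval -0.88 to 1.39, adjusted p = 0.828), an interval wide enough to hold a difference of more than 1 log2 unit.

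The isoform calls rest on few arrays. PMAIP1 lost its call without the UMRC2 FoxO1 pair (0.97, adjusted p = 0.105), and BID lost its call without the RCC4 FoxO1 pair (-1.12, adjusted p = 0.167) or the UMRC2 FoxO1 pair (-1.09, adjusted p = 0.0985). On deposited values neither passed (PMAIP1 1.26, adjusted p = 0.628, and BID -1.33, adjusted p = 0.581). Without the RCC4 FoxO3 pair, which spans the scan levels, the differences were 1.81 for PMAIP1 and -1.20 for BID, with 1 FoxO3 pair left. The UMRC2 arrays share 1 scan level. The part of scan level in the isoform calls was not tested.

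Construct RNA also differed between the isoform lines, by 3.26 log2 units in RCC4 and 0.94 in UMRC2 on the 5 ESR1 probe sets with vehicle, with FoxO3 the higher in both. RCC4 FoxO3 and UMRC2 FoxO1 had ESR1 levels of 12.49 and 12.29. At those levels PMAIP1 minus EV was 1.53 in RCC4 FoxO3 and -0.35 in UMRC2 FoxO1, BID was -1.32 and -0.37, and BCL2L11 was 0.53 and 2.33. On the other PMAIP1 probe set the values were 1.18 in RCC4 FoxO3 and 0.31 in UMRC2 FoxO1. This contrast crosses cell lines. The part of construct RNA in the isoform differences was not tested, and fusion protein was not analysed here.

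**Figure D3:**
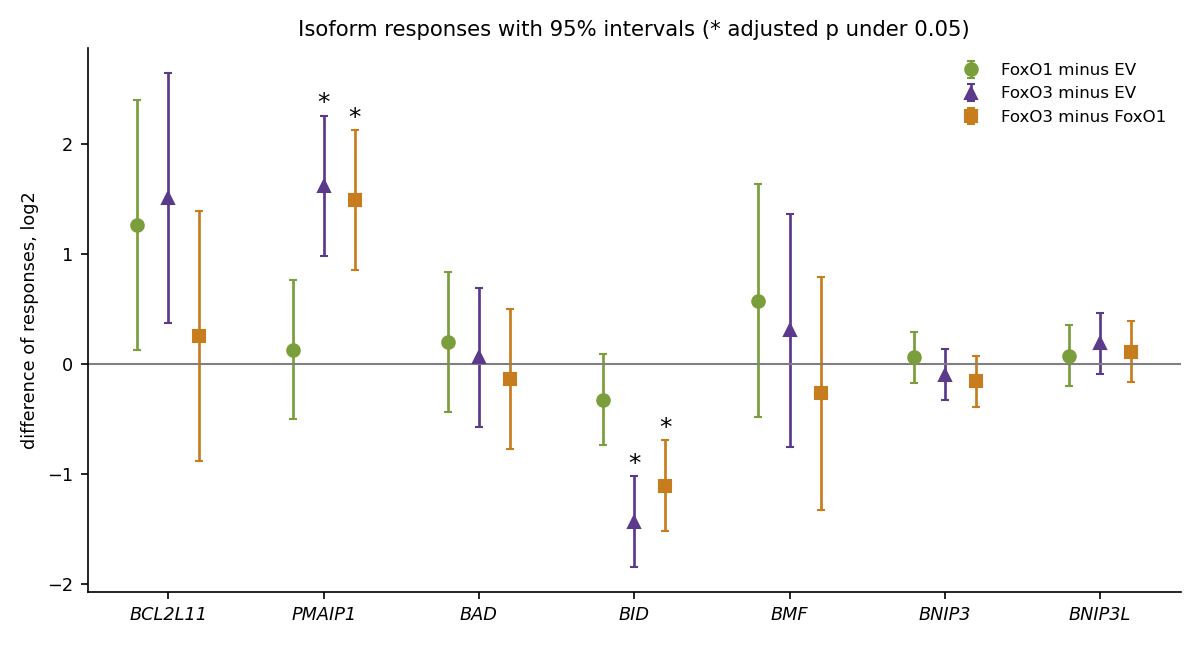
Fitted difference of responses (y axis, log2) for the 7 tested genes: FoxO1 minus EV (green circles), FoxO3 minus EV (purple triangles) and FoxO3 minus FoxO1 (orange squares), with 95% intervals from the limma fit on 6 responses and stars at adjusted p under 0.05. The 4 stars belong to PMAIP1 and BID, and the BCL2L11 intervals against EV lie above 0 without an adjusted p under the threshold.

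BAD, the sensitizer that growth factor signalling holds inactive by phosphorylation, varied little on its brightest probe set. Its level ran from 8.46 to 9.34 over the 12 arrays with a median of 8.82. The largest response, 0.48, was in UMRC2 EV, which carries no FoxO fusion, and the fusion responses of 0.17 to 0.46 did not exceed it. The joint difference was 0.13 ± 0.23 (95% interval -0.42 to 0.68, adjusted p = 0.811). The other 2 BAD probe sets gave joint differences of 0.06 and 0.29, but their responses differed. On 1861_at the RCC4 responses were 0.56 with FoxO1 and -0.25 with FoxO3. On 232660_at, at the floor on 2 arrays, every response was below 0, down to -1.07 in UMRC2 EV. BMF, a sensitizer held on the cytoskeleton by dynein light chains, lay between 6.81 and 8.03. Its highest array was RCC4 FoxO1 with 4OHT, with a response of 0.85, against 0.09 in the matching UMRC2 line. Its FoxO3 responses were -0.01 in RCC4 and 0.41 in UMRC2. The joint difference was 0.44 ± 0.39 (adjusted p = 0.572). BIK, a BH3-only protein of the endoplasmic reticulum, was below the array median on all 12 arrays and at the floor of 4.20 on 5, so its responses carry no order and it was not tested.

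Neither BNIP3 nor BNIP3L passed the test with either isoform. BNIP3 lay between 13.48 and 13.83 and BNIP3L between 12.55 and 13.08, on a scale whose brightest value was 14.88. BNIP3 responded by 0.13 and -0.04 to FoxO1 and FoxO3 in RCC4 and by 0.08 and -0.07 in UMRC2. The EV responses of 0.03 and 0.06 lay inside that range. The joint difference was -0.02 ± 0.09 (95% interval -0.22 to 0.18, adjusted p = 0.928) for BNIP3 and 0.13 ± 0.10 (95% interval -0.11 to 0.37, adjusted p = 0.513) for BNIP3L. These intervals lie within 0.4 log2 units of 0. The other BNIP3L probe set gave -0.23, opposite in sign, and the other BNIP3 probe set gave 0.00.

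The BNIP3 genes show how much rests on scaling between arrays. The deposited BNIP3 intensity was 16506 in RCC4 FoxO3 with vehicle and 9187 with 4OHT, while the deposited median of those arrays was 129.6 and 74.6. With values left as deposited the BNIP3 joint difference was -0.30, and the median over all genes tested was -0.31. Quantile normalisation brought that median to -0.05.

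**Figure D4:**
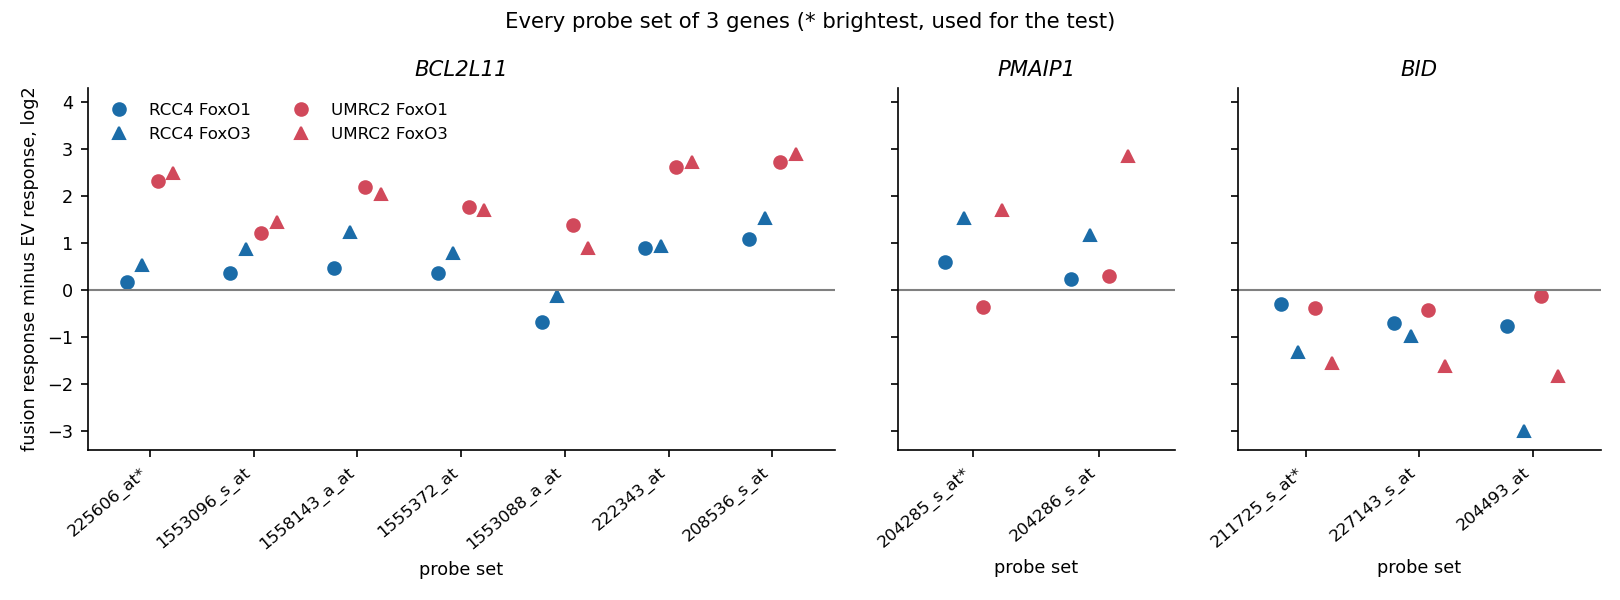
Fusion response minus the EV response of the same cell line (y axis, log2) on every probe set of BCL2L11, PMAIP1 and BID (x axis, the brightest marked with a star), for FoxO1 (circles) and FoxO3 (triangles) in RCC4 (blue) and UMRC2 (red), 1 value per point. On all 7 BCL2L11 probe sets the UMRC2 points lie above the RCC4 points on average, the FoxO3 points lie above the FoxO1 points on both PMAIP1 probe sets and below them on all 3 BID probe sets.

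Neither 4OHT alone nor the fusions without 4OHT moved a member past the test. In the EV lines no member passed and no gene of 14285 was called by limma (338 at an unadjusted p under 0.05), with member responses from -0.22 to 0.52. The highest of these was BCL2L11 in RCC4. With vehicle, fusion lines against EV lines gave no call among members or among all genes (1222 at an unadjusted p under 0.05). BCL2L11 had the value farthest above 0 there, 0.26 ± 0.09 (95% interval 0.05 to 0.48, adjusted p = 0.551).

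RCC4 and UMRC2 differed in PMAIP1 before any 4OHT. The vehicle level of PMAIP1 was 10.45 ± 0.24 (SD, n = 3 engineered lines) in RCC4 and 11.74 ± 0.13 in UMRC2. The 3 engineered lines on each side are 1 cell line with different constructs, so the p-values here speak for these 2 cell lines only. The fitted difference was -1.29 ± 0.12 (adjusted p = 0.000257). 3 of the 7 members passed, where 50.3% of all genes tested differed between the lines, 26.6% higher and 23.6% lower in RCC4, so such a count is near the background. The others were BCL2L11, higher in RCC4 by 0.31 ± 0.09 (adjusted p = 0.0243), and BID, lower by 0.25 ± 0.07 (adjusted p = 0.0198). The BID direction turned on deposited values, at 0.51, and BCL2L11 lost its call without the RCC4 FoxO1 array (adjusted p = 0.0968) or the RCC4 FoxO3 array (adjusted p = 0.125). BID lost its call without those arrays too (adjusted p = 0.106 and 0.0989). Deposited values gave 88.2% of called genes as higher in RCC4, against 53.0% after quantile normalisation.

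In the machinery that BH3-only proteins act on, the genes that passed for both isoforms together were all lower, in a comparison in which 7.79% of all genes tested were called. Of 4 tested anti-apoptotic genes, 1 was lower with both isoforms together, BCL2L1 (BCL-XL), which fell by 0.94 ± 0.18 (adjusted p = 0.0246). The median of the 4 on their brightest probe sets was 0.35, against -0.05 for all genes tested. Other probe sets that reached the array median on at least 2 arrays did not all share the sign. For BCL2 both were opposite, at -1.22 and -0.67, and for MCL1 1 of 5 was, at -1.14. BCL2L1 and BCL2L2 had no such probe set of opposite sign. None of the 3 pore-forming effectors passed, and BAX and BOK had values of -0.54 (adjusted p = 0.187) and -0.11 (adjusted p = 0.714). Of 12 genes of the apoptosome and caspases, 1 was lower, CYCS, the cytochrome c gene (-0.41, adjusted p = 0.0328), with a list median of -0.27. With FoxO3 alone, where 16.6% of all genes were called, 1 of these 12 was higher and 3 were lower. The higher one was APAF1, the scaffold that cytochrome c activates (1.48 ± 0.31, adjusted p = 0.0181), and CYCS, CASP2 and AIFM1 were lower. Genes named here and below for FoxO3 alone were chosen after their values were seen. Of 5 inhibitors of apoptosis 1 was lower, BIRC5 (survivin, also a mitotic protein), which fell by 0.64 ± 0.13 (adjusted p = 0.0308), with a list median of -0.27. The BIRC5 value was 0.02 with FoxO1 alone and -1.30 with FoxO3 alone.

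For both isoforms together, the relatives of the members and their autophagy partners that passed were all higher. In that comparison 3.09% of all genes tested were higher and 4.70% lower, against 6.61% and 10.0% with FoxO3 alone. Of 9 other genes with a BH3 region or of related families, 2 were higher and none lower (median 0.20): MOAP1, which binds BAX (1.07 ± 0.24, adjusted p = 0.0395), and BCL2L13, itself a mitophagy receptor (0.70 ± 0.16, adjusted p = 0.0390). The BCL2L13 value was -0.06 with FoxO1 alone and 1.46 with FoxO3 alone. Of 14 mitophagy genes 2 were higher and none lower (median 0.33), BCL2L13 again and the receptor OPTN (0.88 ± 0.17, adjusted p = 0.0257). With FoxO3 alone the mitophagy list had 5 higher and 2 lower, the lower ones being PGAM5, a mitochondrial phosphatase (-1.42, adjusted p = 0.00991), and PHB2, a prohibitin of the inner membrane (-0.46, adjusted p = 0.0257). Of the 5 LC3 and GABARAP genes, whose products BNIP3 and BNIP3L bind, 2 were higher (median 0.54): GABARAPL1 (1.64 ± 0.27, adjusted p = 0.0155) and MAP1LC3B (0.77 ± 0.12, adjusted p = 0.0135). With FoxO3 alone 3 of these 5 passed, all higher, with a median of 0.97 against -0.07 for all genes tested.

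Among regulators of the members, the p53 and BH3 lists gave lower calls alone for both isoforms together, and calls in both directions for FoxO3 alone. The shares called over all genes tested were 7.79% for both together and 16.6% for FoxO3 alone. Of 14 genes of the p53 axis none was higher and 2 were lower (median -0.14): AEN, a p53-induced nuclease, which fell by 2.56 ± 0.31 (adjusted p = 0.00686), and the death receptor TNFRSF10B, which fell by 1.12 ± 0.23 (adjusted p = 0.0305). With FoxO3 alone 2 of the 14 were higher and 2 lower. SESN1 (2.11, adjusted p = 0.0488) and TP53INP1 (1.60, adjusted p = 0.0350), both p53 targets, rose, as did PMAIP1, while AEN (-3.52, adjusted p = 0.00180) and TNFRSF10B (-1.46, adjusted p = 0.0107) fell. Of 19 regulators of BH3-only proteins, 2 were lower: MYC, which fell by 2.22 ± 0.32 (adjusted p = 0.0100), and TRIB3, a stress-induced pseudokinase, which fell by 1.93 ± 0.24 (adjusted p = 0.00705). The list median was -0.03. With FoxO3 alone 2 of the 19 were higher, the kinases PIM1 (1.41, adjusted p = 0.00963) and MAPK8 (1.32, adjusted p = 0.0102), and 4 were lower. Of 14 hypoxia factors and targets read beside BNIP3, 3 were lower and 1 higher (median -0.17). VEGFA (-1.71, adjusted p = 0.00615), PFKFB4 (-1.24, adjusted p = 0.0186) and PFKFB3 (-0.67, adjusted p = 0.0325) fell, while PDK1, a kinase that inhibits pyruvate dehydrogenase, rose (0.82, adjusted p = 0.0472). The value for BNIP3 was -0.02, as given above.

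2 of 6 tested renal and epithelial markers fell with both isoforms together, where 4.70% of all genes tested did: KRT18 (-1.12, adjusted p = 0.0109) and PAX8 (-0.89, adjusted p = 0.0107). None of 3 tested markers of other cell types passed; HBB had 0.51 and CD3E 0.36. Their part in the member results was not tested.

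The genes whose levels tracked each member most closely over the 12 arrays are given as a description, since the arrays share lines and treatments. They were MAN2A1 (Pearson r = 0.98) and DDA1 (0.97) for BCL2L11, ZSWIM6 (0.98) and CDK7 (0.98) for PMAIP1, and PAK1IP1 (0.99) and EIF4E (0.99) for BID. The closest to BAD were RFC5 (0.92) and AVEN (0.91), and to BMF RASL11A (0.90) and NUDT18 (0.86). UHMK1 and DNAJC12 (both 0.93) tracked BNIP3, and TCN1 (0.92) and CDKL3 (0.91) tracked BNIP3L.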

How the data were processed

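RNA from 12 cultures of RCC4 and UMRC2 lines was measured on Affymetrix U133 Plus 2.0 arrays. Each deposited value is the intensity of a probe set, computed by the authors with MAS5 per the submitters' processing notes; scaling settings are not given in the sources used here. Of 54675 probe sets, 62 were controls, 41091 had 1 symbol, 1801 several and 11721 none. Values were quantile normalised (limma 3.58.1, R 4.3.3), raised to a floor at the 20th percentile (intensity 18.4), and log2 transformed. Genes whose brightest probe set reached the array median on at least 2 arrays were tested with lmFit and eBayes (trend) on the 6 responses, with cell line as a term; the fits on vehicle arrays used levels. The line difference used a line by FoxO term, with FoxO1 and FoxO3 pairs as replicates. Precision is limited by how few arrays there are.

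The members and the gene lists were chosen with earlier results of these data known. Named from each list were up to 4 genes by size of the joint difference past adjusted p 0.05, or 2 by size where none passed, plus the 2 genes most correlated with each member. Alternatives changed the scaling, floor, filter, probe set, prior variance and model terms and left out each pair. The fits were tested on simulated data. Promoters came from RefSeq (GRCh38.p14).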

Additional observations from a re-analysis of the deposited data

Results flagged for a closer look

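2 members differed between the isoforms in the direct test of FoxO3 against FoxO1 responses (limma, n = 2 cell lines each): PMAIP1 was higher with FoxO3 by 1.49 log2 units (adjusted p = 0.0278), and the BID difference was -1.11 (adjusted p = 0.0209), each with the same sign in 2 of 2 cell lines. Construct RNA was higher in the FoxO3 line of both pairs, by 3.26 and 0.94 on the 5 ESR1 probe sets chosen for standing higher in the fusion lines; its part was not tested.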

How the results depend on the processing

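Both member values and numbers of genes called moved with the processing. The BCL2L11 value ran from 0.36 to 2.41 for both isoforms together and from 0.23 to 2.28 for FoxO1, and values that did not pass took either sign for BAD (-0.15 to 0.37) and BNIP3L (-0.23 to 0.16) together and PMAIP1 with FoxO1 (-0.39 to 0.65). For the joint comparison 1113 genes were called, 184 on deposited values, 577 with probe sets averaged per gene, and 0 both with no filter and with a constant prior variance; leaving out 1 pair gave 192 to 1602, the lowest without UMRC2 EV. For FoxO1 the 12 calls became 36 with a common median, 30 with log2(value + 16), 36 with a floor at the 40th percentile, 2 with no line term, and 0 with no filter, with averaged probe sets and with a constant prior variance; leaving out 1 pair gave 0 (without UMRC2 FoxO1) to 172. For FoxO3 the 2377 became 583 on deposited values and 0 with no filter and with a constant prior variance (1142 to 2234 without 1 pair). For FoxO3 against FoxO1 the 830 became 46 on deposited values, 360 with averaged probe sets, 0 with no filter and with a constant prior variance, and 37 (without RCC4 FoxO1) to 1025 without 1 pair. The line difference gave 1 call on deposited values, and the vehicle comparison of fusions gave 3 with no filter and 0 to 1 without 1 array. The PMAIP1 isoform call was also lost with averaged probe sets (adjusted p = 0.0556) and on its other probe set (adjusted p = 0.0524); the BID isoform call was lost on probe set 227143_s_at (adjusted p = 0.174). Both were lost with no filter and with a constant prior variance. Differences between RCC4 and UMRC2 that turned were BCL2L11 on 208536_s_at (-0.012), BAD on deposited values (0.58), with averaged probe sets (0.47) and 232660_at (1.94), BID on deposited values (0.51), and BNIP3 on deposited values (0.85) and with a common median (0.20). The BNIP3 difference also turned on its other probe set, 201848_s_at, without passing. The causes were not tested. The EV pairs could not be left out of the line difference. The main fit pairs the 4OHT and vehicle arrays of each engineered line; replicate numbers were not given. Values near the floor and near the brightest value carry the least information.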
